A study of Mus musculus with 16 samples.

Results

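The Hippo pathway coactivators and TEAD factors described here are 7 genes of mouse bone marrow stem and progenitor cells, taken from 18193 genes that could be named on the array. They are the coactivators Wwtr1 (whose protein is called TAZ) and Yap1, the DNA-binding factors Tead1 and Tead2, the inhibitory kinases Lats1 and Lats2, and Amotl2. The 7 symbols were fixed as a list and matched to probe sets (groups of short array probes for 1 transcript) through the platform annotation. They had 17 probe sets, and each gene was read by the probe set with the highest mean over 16 arrays.

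In the Hippo pathway, a chain of kinases that ends in Lats1 and Lats2 phosphorylates the proteins YAP and TAZ, which keeps them out of the nucleus. When the chain is quiet they enter the nucleus, where they have no DNA-binding domain of their own and act through TEAD factors. Angiomotin-family proteins such as Amotl2 bind YAP and TAZ and hold them in the cytoplasm, and Amotl2 and Lats2 are themselves known YAP/TAZ target genes. The pathway is best known for its part in organ size, and mouse knockouts have been reported to make steady-state blood without YAP and TAZ. Arrays measure RNA, so phosphorylation and the place of the proteins in the cell were not measured.

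The study set hematopoietic stem cells (HSC) of mid-aged mitochondrial mutator mice beside HSC of wild-type mice of several ages, on 16 Affymetrix expression arrays of cells sorted from bone marrow. All mice were labelled as female C57Bl6. HSC came from young wild-type mice of 9 to 12 weeks (3 arrays) and old wild-type mice of 24 months (3 arrays). They also came from 32-week Polgtm1Lrsn+/+ mice, called 32-week wild type here (3 arrays), and 32-week Polgtm1Lrsn-/- mice, called mutator (3 arrays). Mutator mice carry a mitochondrial DNA polymerase without proofreading, encoded by Polg, in every cell. Common lymphoid progenitors (CLP), early cells of the lymphoid branch, came from wild-type mice of 8 to 12 weeks and were sorted as Ly6D- (2 arrays) or Ly6D+ (2 arrays). Replicates are labelled biological, and the sources used here do not say if animals were pooled.

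The median intensity of an array lay between 24.6 and 29.8, and the 40th percentile, taken here as the background, between 16.6 and 21.3. Summed intensities of 8 HSC markers lay between 8262 and 21965 on the 12 HSC arrays and between 1071 and 1950 on the CLP arrays. By group they were 13696 to 15499 in young and 17553 to 21965 in old HSC. They were 8262 to 11082 in the 32-week wild type and 10198 to 11148 in mutator HSC. Sums of 5 CLP markers lay between 115 and 322 on HSC arrays against 16434 to 22789 on CLP arrays. The log2 ratio of 3' to 5' actin probe sets, a measure of RNA quality, was 4.24 to 5.26 on the 6 arrays of 32-week mice against 2.20 to 2.61 on the young and old HSC arrays. It was 2.11 to 2.52 on 3 CLP arrays and 3.85 on replicate 2 of the Ly6D+ CLP. Replicate 3 of the 32-week wild type and all 4 CLP arrays read Xist at 9.12 to 16.8 and the Y-linked gene Eif2s3y at 423 to 758, against their label of female. All CLP arrays carry this pattern, so in the comparisons with young HSC it cannot be told apart from the cell type. Polg read 113 to 163 in the 32-week wild type and 65.9 to 125 in mutator HSC, and a proofreading mutation need not change the RNA, so this checks no label. In sorted cell pools, fewer cells of a type and less RNA per cell cannot be told apart.

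RefSeq promoter windows of the GRCm38.p6 assembly, 250 bases before to 50 after a start site, were given for 6 of the 7 genes, all but Tead1. The TEAD binding motif GGAATG, or CATTCC on the other strand, was searched on both strands and does not overlap itself on the opposite strand. It was present in the windows of 4 of those 6 genes, Wwtr1, Yap1, Amotl2 and Lats2, and absent from those of Tead2 and Lats1. Of all 27025 genes with a window, 16.6% held the motif in at least 1 window. The Wwtr1 promoter is shown because Wwtr1 gave the largest difference among the 7 genes, and the capitals mark the motif, which begins 136 bases before the start site. The 250 bases lie on the minus strand at chr3:57575911-57576160.
Wwtr1: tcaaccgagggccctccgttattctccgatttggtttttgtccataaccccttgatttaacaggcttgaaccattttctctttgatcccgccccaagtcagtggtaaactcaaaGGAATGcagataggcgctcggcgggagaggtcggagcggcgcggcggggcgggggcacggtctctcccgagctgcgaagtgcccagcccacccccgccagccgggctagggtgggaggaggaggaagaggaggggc
The other motif matches are shown with 12 bases on either side, with the motif in capitals. They begin 141 bases before the start site of the Yap1 window, 65 bases before that of the Amotl2 window and 4 bases after that of the Lats2 window. The annotated spans of these genes begin further upstream, at 8004638 for Yap1, 102717091 for Amotl2 and 57746212 for Lats2. The Amotl2 and Lats2 matches lie inside those spans.
Yap1: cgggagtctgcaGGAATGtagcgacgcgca
Amotl2: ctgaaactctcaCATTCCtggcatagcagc
Lats2: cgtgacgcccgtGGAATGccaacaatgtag
The Yap1 match lies on the minus strand at chr9:8004720-8004749, the Amotl2 match on the plus strand at chr9:102717727-102717756 and the Lats2 match on the minus strand at chr14:57746102-57746131. A match describes letters in the genome, and TEAD binding was not measured here. Among 15 genes of a list of known YAP/TAZ targets that had a window, 7 held the motif, Amotl2 and Lats2 among them.

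Wwtr1 was the member that differed most between the groups. In young HSC its probe set read 82.8, 70.2 and 71.2, on the linear intensity scale of the deposited values. In old HSC it read 896, 886 and 940.1. The 3 old arrays lay close together and far above every other array of the series. The change was 3.35 ± 0.526 (SE) on the log2(intensity + 16) scale (limma, Benjamini-Hochberg adjusted p = 0.00776), a 10.2-fold rise. It was the only 1 of the 6 members tested that passed the threshold of adjusted p under 0.05, where 1.31% of the 13481 genes tested passed, 1.05% as higher and 0.252% as lower. The standard error is shared with the scattered 32-week arrays, and it was 0.0989 in a fit of the young and old arrays alone.

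The 32-week arrays read Wwtr1 at intermediate and scattered levels. The 3 wild-type arrays read 41.0, 323 and 143. The 3 mutator arrays read 68.9, 218 and 167. Each of these groups overlapped the young arrays, and none of their arrays reached the old ones. The change from young to 32-week wild type was 0.68 ± 0.526 (adjusted p = 0.387) and that from 32-week wild type to mutator was 0.08 ± 0.526 (adjusted p = 0.994), both by limma. Without replicate 1 of the 32-week wild type, the HSC array with the lowest Wwtr1 and the lowest mean intensity, the first of these was 1.36 with an adjusted p of 0.0332. In that fit 3054 of 13364 genes passed, against 3258 of 13481 in the main fit.

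Wwtr1 was lowest in lymphoid progenitors. It read 31.4 and 26.5 in Ly6D- CLP and 23.4 and 20.9 in Ly6D+ CLP. All 4 values lay above the background of their arrays and below all HSC arrays. Neither change from young HSC passed (limma, -1.01 ± 0.550 with an adjusted p of 0.213, and -1.25 ± 0.550 with an adjusted p of 0.122), where 24.4% (9.55% as higher, 14.9% as lower) and 24.3% (10.4% and 13.9%) of 14343 genes passed. In a fit without the 6 arrays of 32-week mice, chosen after seeing the data, the same differences had a standard error of 0.119. The adjusted p-values for Wwtr1 were 0.000388 and 0.000107 in that limma fit, where 4548 and 4541 of 14006 genes passed. Ordered by group mean, Wwtr1 ran from Ly6D+ CLP through Ly6D- CLP and young HSC to old HSC, with both 32-week groups between young and old and overlapping each other.

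**Figure D1:**
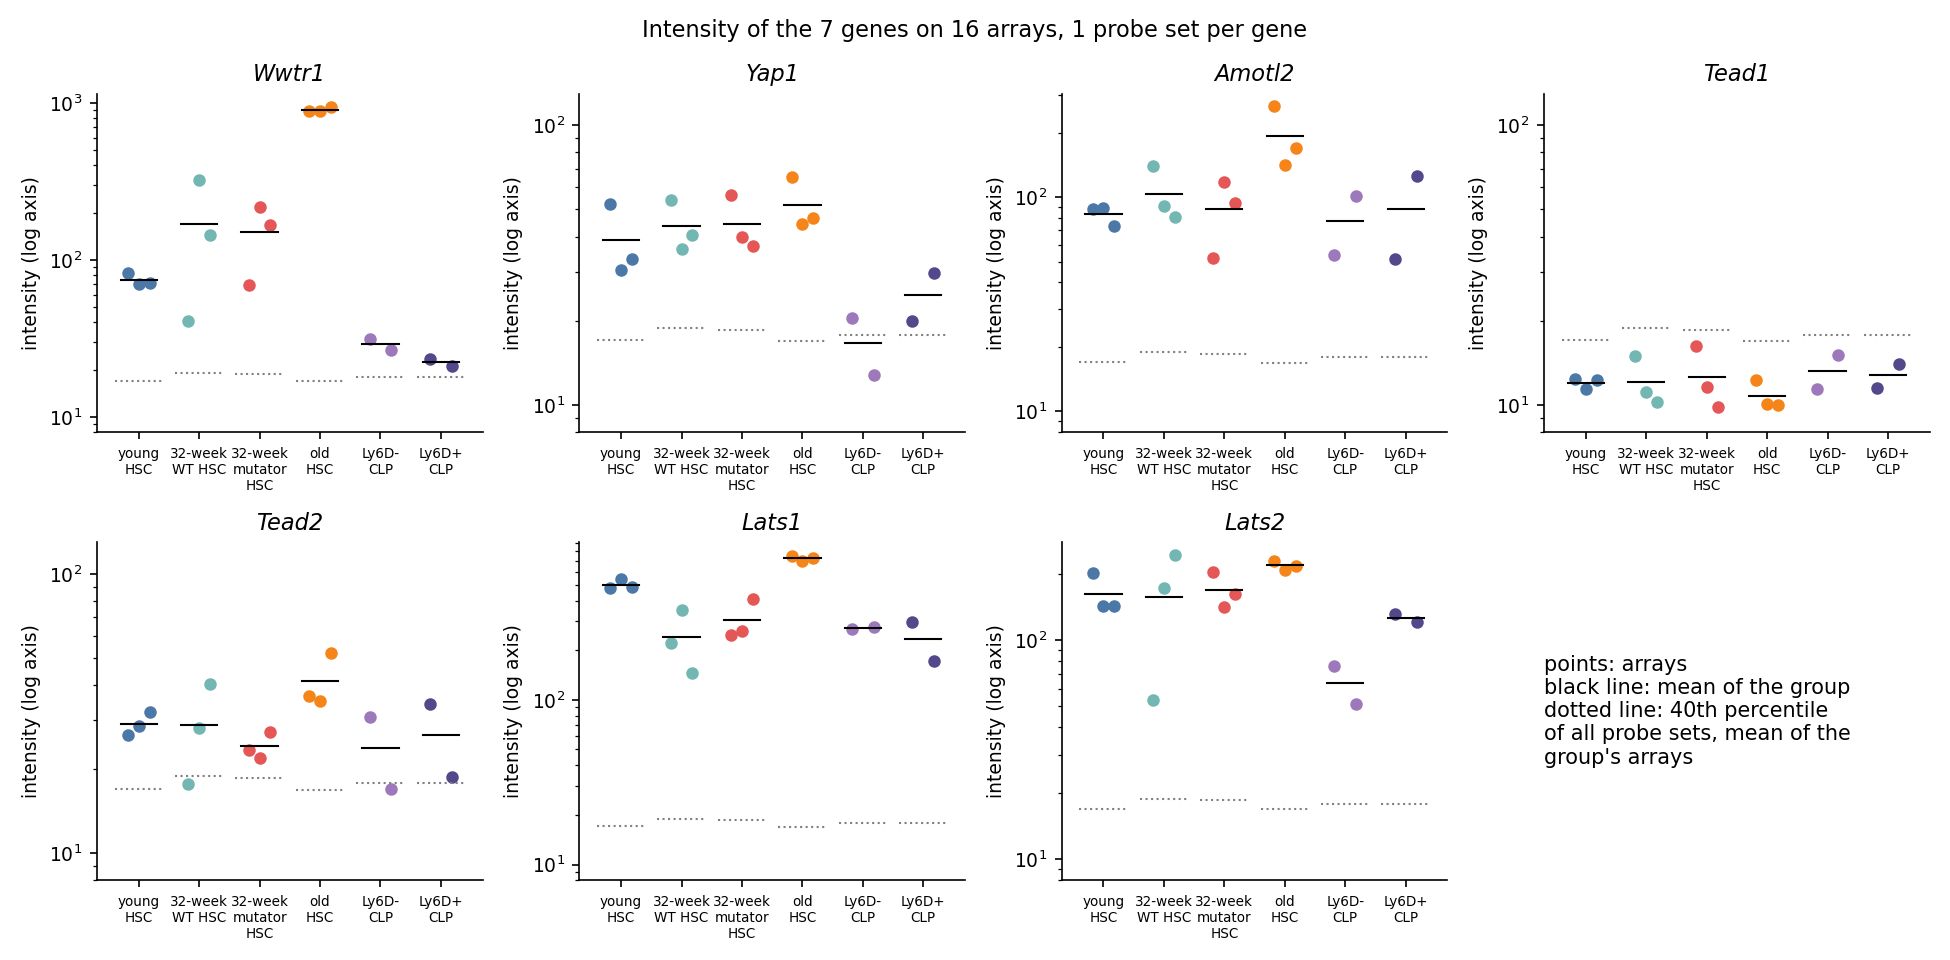
Intensity of each of the 7 genes on a log axis in the 6 groups. Points are arrays, black lines group means and dotted lines the 40th percentile of all probe sets. The 3 old HSC arrays read Wwtr1 between 886 and 940.1, above every other array, and all Tead1 points lie below the dotted line.

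Wwtr1 has 2 further probe sets, both dim. The set 1417817_a_at read 14.0 to 16.7 in young HSC, 23.9 to 28.2 in old HSC and 23.8 to 48.8 in the 32-week wild type. The set 1437155_a_at read 11.9 to 12.7 in young HSC, 15.9 to 24.5 in old HSC and 15.9 to 27.5 in the 32-week wild type. In mutator HSC the 2 sets read 25.4 to 30.1 and 18.5 to 32.5, and neither set had its highest group mean in old HSC. Both were higher in old than in young HSC without overlap, at 0.43 ± 0.181 (adjusted p = 0.509) and 0.39 ± 0.170 (adjusted p = 0.555), and neither passed when all 24107 probe sets were tested by limma. In the 32-week wild type the first of them was 0.58 ± 0.181 above young HSC and passed (adjusted p = 0.0391), where the bright probe set did not. With the 3 probe sets averaged, the Wwtr1 change from young to old was 1.39 and still passed.

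**Figure D2:**
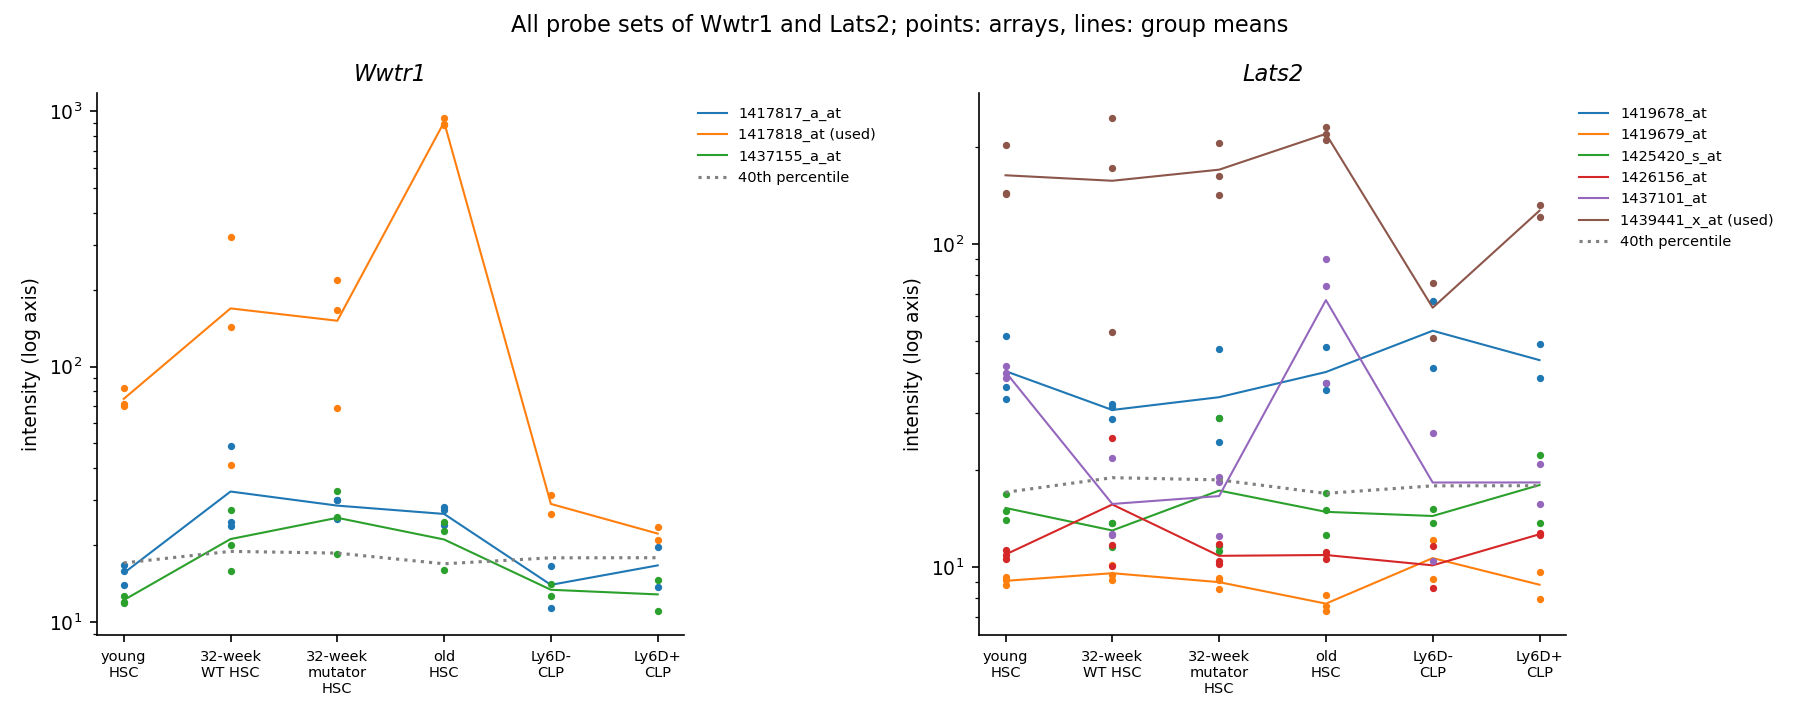
Intensity, on a log axis, of every probe set of Wwtr1 and Lats2 in the 6 groups. Points are arrays, lines join group means, and the dotted line is the 40th percentile. Probe sets differ in brightness for reasons of their design, so only changes along a line can be read. The probe set 1417818_at of Wwtr1 carries the rise in old HSC, and 1419679_at of Lats2 is below the dotted line on all 16 arrays.

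Yap1, the paralog of Wwtr1, passed in no comparison among stem cells. Young HSC read 52.5, 30.5 and 33.3. Old HSC read 65.2, 44.4 and 46.5. The highest young array lay inside the range of the old ones, and the change of 0.32 ± 0.204 did not pass (limma, adjusted p = 0.871). The 32-week wild type read 54.0, 36.2 and 40.6, and mutator HSC read 56.5, 39.97 and 37.2. These groups overlapped, with a difference of 0.02 ± 0.204 (adjusted p = 0.997).

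In Ly6D- CLP Yap1 read 20.5 and 12.8, a group mean at the background, and in Ly6D+ CLP 19.9 and 29.6. All 4 lay below the lowest HSC array, which read 30.5. Yap1 fell by 0.73 ± 0.228 on the log2 scale from young HSC to Ly6D- CLP (limma, adjusted p = 0.0323), which on the plain intensity scale is at least 1.97-fold against the background level. It was the only member to pass there. The change to Ly6D+ CLP was -0.41 ± 0.228 (adjusted p = 0.218), and that between the CLP groups, 0.32 ± 0.250, did not pass either (adjusted p = 0.694). The call in Ly6D- CLP was lost in 7 of 18 alternatives, and adjusted p over the 18 ran from 0.0113 to 0.223. It ended without young replicate 1 or 3 or Ly6D- CLP replicate 2. It also ended with array weights, with only the groups compared, with the mean of probe sets and with a pseudocount of 64. The second probe set of Yap1 read 12.9 to 26.0 on all arrays and was 0.10 ± 0.158 lower in Ly6D- CLP than in young HSC (adjusted p = 0.718).

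The TEAD factors were dim. Tead1 read between 9.81 and 16.3, below the background of its array on 16 of 16 arrays, so it was not tested. Its second probe set, 1423434_at, was also below background on every array. This gives only that Tead1 RNA was not above background with these probes.

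Tead2 was above background on 14 of 16 arrays. It read 26.5, 28.6 and 32.2 in young HSC. It read 36.5, 35.2 and 52.0 in old HSC. The old arrays lay above the young ones without overlap, but the change of 0.33 ± 0.191 did not pass (limma, adjusted p = 0.783) in any of 18 alternatives. Tead2 read 17.8 to 40.4 in the 32-week wild type, 21.9 to 27.2 in mutator HSC and 17.0 to 34.3 in CLP. Those groups overlapped each other and young HSC, and only the 32-week wild type reached into the range of old HSC.

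Of 6 further TEAD genes and TEAD cofactors fixed as a list, 4 were bright enough to test, and none passed in the comparisons as fitted here. Vgll4, a cofactor that competes with YAP for TEAD, was -0.30 ± 0.326 in old against young HSC (limma, adjusted p = 0.9996), and Vgll1, of the same family, was -0.07 ± 0.132 (adjusted p = 0.9996). The nearest to the threshold was Vgll1 in Ly6D+ CLP against young HSC, at 0.41 ± 0.142 (adjusted p = 0.0536), and it passed in 7 of 17 alternatives (adjusted p 0.0199 to 0.194).

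Lats1, a kinase that phosphorylates YAP and TAZ, read lower in both 32-week groups than in young and old HSC. Young HSC read 475, 539 and 485. Old HSC read 752, 698 and 729.7. The old arrays were higher without overlap, yet the change of 0.53 ± 0.269 did not pass (limma, adjusted p = 0.669). In a fit of those 6 arrays alone the standard error was 0.0969, with an adjusted p of 0.0174 for Lats1. Over all genes 1007 of 12992 passed in that fit.

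At 32 weeks wild-type HSC read Lats1 at 220.2, 354 and 145. Mutator HSC read 248, 261 and 407. Both groups lay below all young arrays and overlapped each other. Lats1 fell by 1.09 ± 0.269 on the log2 scale, or 2.13-fold, from young to 32-week wild-type HSC (limma, adjusted p = 0.0130). It was the only member called there, where 24.2% of genes passed, 6.42% as higher and 17.7% as lower. The call was just lost without young replicate 2 (adjusted p = 0.0503 for Lats1) and held at -0.80 without replicate 3 of the 32-week wild type, the array with low Xist (adjusted p = 0.0403). The actin 3' to 5' ratio and the share of genes called lower stand apart in this same comparison, and their part in the result was not tested. The difference between mutator and 32-week wild type, 0.38 ± 0.269, did not pass (adjusted p = 0.831).

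In CLP, Lats1 read 269.8 and 277 in the Ly6D- cells and 295 and 171 in the Ly6D+ cells. All lay below the young HSC arrays. Lats1 fell by 1.09 ± 0.309 from young HSC to Ly6D+ CLP (limma, adjusted p = 0.0202). The change to Ly6D- CLP was -0.83 ± 0.309 (adjusted p = 0.0687) and that between the CLP groups -0.26 ± 0.338 (adjusted p = 0.871), so the test does not set the CLP groups apart. The Ly6D+ call ended without young replicate 2 (adjusted p = 0.0617 for Lats1) or Ly6D+ CLP replicate 2 (-0.73, adjusted p = 0.202). The latter array is the lowest in Lats1 among the CLP and has the highest actin 3' to 5' ratio among them, 3.85, whose part in the result was not tested. The second Lats1 probe set was below background on all arrays.

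Lats2, the paralog of Lats1, read 203, 144 and 143 in young HSC. It read 230.2, 209 and 219 in old HSC. By the probe set used, the old arrays lay just above the young ones, and the change of 0.41 ± 0.380 did not pass (limma, adjusted p = 0.9996). The 32-week wild type spread from 53.2 through 172 to 246, and mutator HSC read 206, 142 and 162. The replicates of the wild-type group spanned more than the difference between any pair of HSC group means.

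Ly6D- CLP read Lats2 at 76.0 and 51.0 and Ly6D+ CLP at 132 and 122, without overlap. Against young HSC the Ly6D- change was -1.18 ± 0.406 (limma, adjusted p = 0.0507) and the Ly6D+ change -0.31 ± 0.406 (adjusted p = 0.637). The difference between the CLP groups, 0.86 ± 0.444, did not pass (adjusted p = 0.453). The Ly6D- value sat at the edge of the threshold and passed in 6 of 18 alternatives. The probe set used is 1439441_x_at, a design that can bind related transcripts. Another Lats2 set, 1437101_at, read 38.5 to 42.0 in young HSC and 12.5 to 21.8 in the 32-week wild type, where its mean was at background. It fell by 0.84 ± 0.232 (limma, adjusted p = 0.0237), where the set used showed -0.24 ± 0.380 (adjusted p = 0.693). From young HSC to Ly6D- CLP, 1437101_at showed -0.75 ± 0.272 (limma, adjusted p = 0.0685). A further set above background on all 16 arrays, 1419678_at, went the other way there, at 0.30 ± 0.223 (adjusted p = 0.392). From Ly6D- to Ly6D+ CLP it showed -0.21 ± 0.244 (adjusted p = 0.837), also opposite in sign to the set used.

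Amotl2, which restrains YAP and TAZ and is induced by them, read higher in old than in young HSC, but the change missed the threshold. It read 88.1, 88.9 and 73.6 in young HSC. It read 266, 141 and 170.4 in old HSC. The groups did not overlap, and the change was 1.02 ± 0.286, or 2.03-fold (limma, adjusted p = 0.152). With array weights the adjusted p for Amotl2 was 0.00113, and in a fit of the young and old arrays alone it was 0.0237. Over all genes those fits called 1879 of 13481 and 1007 of 12992, against 176 of 13481 in the main fit.

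In the other groups Amotl2 showed no difference beyond the spread of its arrays. The 32-week wild type read 140.3, 91.2 and 80.4 and mutator HSC read 51.9, 118 and 94.1, with a difference of -0.23 ± 0.286 (limma, adjusted p = 0.923). Ly6D- CLP read 53.5 and 101 and Ly6D+ CLP 51.2 and 125. The replicates of each CLP group lay on either side of the young HSC arrays, and the changes from young HSC were -0.14 ± 0.379 (adjusted p = 0.845) and -0.03 ± 0.379 (adjusted p = 0.971).

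Between young and old HSC, all 6 members tested had a positive change, with a median of 0.47 against -0.01 over all genes tested, though only Wwtr1 passed. In 5 of them, all but Yap1, the groups did not overlap by the probe set used, with the old arrays higher, as was the case for 14.0% of all genes tested. For Lats2, 2 other probe sets above background in both groups did overlap. The set 1419678_at read 33.1 to 51.9 in young and 35.3 to 47.9 in old HSC, at 0.0015 ± 0.190 (limma, adjusted p = 0.9998). The set 1437101_at read 38.5 to 42.0 and 37.1 to 89.7, at 0.51 ± 0.232 (adjusted p = 0.601). All 6 members were tested on the strength of most HSC arrays, not of the old ones alone. The comparisons of 32-week wild type and of CLP with young HSC share the 3 young arrays, so values below young HSC in several groups are not separate evidence. In both CLP groups 4 of the 6 members, Wwtr1, Yap1, Lats1 and Lats2, lay below young HSC without overlap, as did 31.0% of genes in Ly6D- and 30.0% in Ly6D+ CLP. In the 32-week wild type 1 of 6, Lats1, lay below without overlap, against 25.4% of genes. Between the CLP groups Lats2 was higher and Wwtr1 lower in Ly6D+ cells without overlap, as were 19.0% and 16.3% of genes, and between mutator and 32-week wild type 0 of 6 were apart, against 6.08%.

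Whether the mutator effect differed from the effect of age was tested as a difference of 2 changes, mutator against 32-week wild type less old against young. For Wwtr1 this difference was -3.27 ± 0.744 and did not pass over all genes (limma, adjusted p = 0.106), where 0.512% of genes passed. It passed without replicate 1 of the 32-week wild type, at -3.94 (adjusted p = 0.00679 for Wwtr1). In that fit 147 of 13364 genes passed, against 69 of 13481 in the main fit. For Amotl2 it was -1.25 ± 0.404 (adjusted p = 0.363), and for the other 4 members it lay between -0.46 and -0.12. Between mutator and 32-week wild type itself 0 of 13481 genes passed in limma, with 984 at an unadjusted p under 0.05, and 0 of the 6 members did so at either level.

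**Figure D3:**
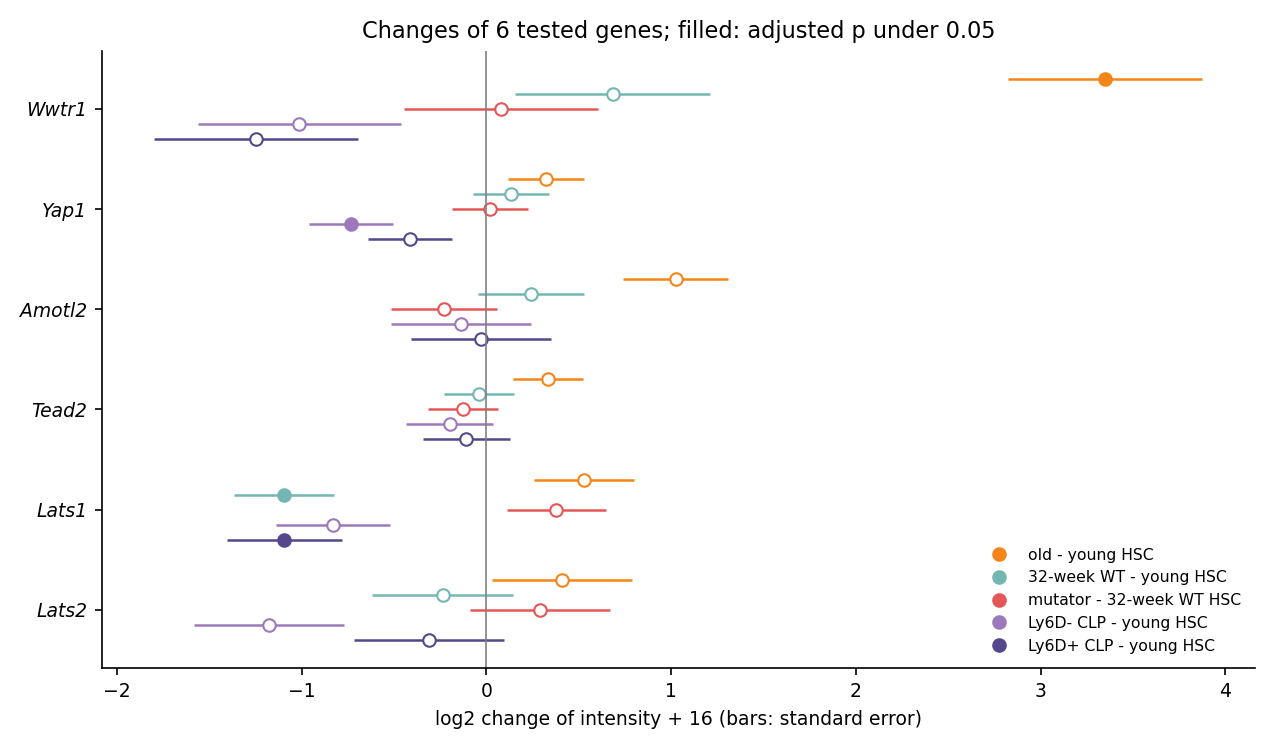
Change of the 6 tested members in 5 comparisons, in log2 units of intensity + 16, with bars of 1 standard error from limma. Filled points passed at an adjusted p under 0.05: Wwtr1 in old HSC (3.35), Lats1 in 32-week wild-type HSC (-1.09) and Ly6D+ CLP (-1.09), and Yap1 in Ly6D- CLP (-0.73).

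Markers of HSC and of other cell types were read beside the rise of Wwtr1 in old HSC. All 8 HSC markers had a positive change from young to old HSC, with a median of 0.47, and 3 of 8 passed in limma. Their sum was 13696 to 15499 in young and 17553 to 21965 in old HSC. Of 10 endothelial markers 9 were tested, of which 3 had a positive and 6 a negative change from young to old HSC, with a median of -0.03. The 2 that passed, both as higher, were Cldn5 (a tight junction protein, 3.07 ± 0.603, limma adjusted p = 0.0312) and Kdr (a VEGF receptor, 1.09 ± 0.233, adjusted p = 0.0490). The defining marker Cdh5 was at background in every group. The summed intensity of the 10 was 275 to 304 in young and 527 to 987 in old HSC. Of 7 megakaryocyte markers 6 were tested, of which 4 had a positive and 2 a negative change, with a median of 0.24. Only the integrin gene Itgb3 passed (1.63 ± 0.340, limma adjusted p = 0.0437), and Pf4 was -0.10 ± 0.302 (adjusted p = 0.9996). The sum of the 7 was 2131 to 2290 in young and 2808 to 4253 in old HSC. Of 10 stromal markers none passed, 6 were at background in old HSC, and the sum was 332 to 723 in young and 339 to 378 in old HSC. Neutrophil markers read lower in old HSC, at a sum of 1320 to 5718 in young and 171 to 1555 in old HSC. All 8 tested had a negative change and 0 passed. Macrophage markers also read lower, at a sum of 312 to 804 in young and 203 to 208 in old HSC. All 8 tested had a negative change, with a median of -0.61. All 8 had an unadjusted p under 0.05 in limma, and 1 passed. The part of RNA from these other cell types in the Wwtr1 rise was not tested, and any link to the HSC markers was not tested either.

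No other gene of 4 pathway lists passed between young and old HSC. Of 10 Hippo kinases and their cofactors, 0 of 10 passed (median 0.04), as did 0 of 14 upstream scaffold and junction genes (median 0.03) and 0 of 16 YAP/TAZ target genes tested of 22 listed (median 0.14), against -0.01 over all genes. At an unadjusted p under 0.05 there were 1, 2 and 2 of them. The target list holds Amotl2 and Lats2. Its nearest to the threshold was Myof, a membrane repair gene, which read 192 ± 38.9 (SD, n = 3) in young and 513 ± 24.9 (SD, n = 3) in old HSC, a change of 1.36 ± 0.356 (limma, adjusted p = 0.116). Ajuba, a LIM-domain protein that binds Lats kinases, had 1.07 ± 0.314 (adjusted p = 0.182) and its relative Wtip 0.56 ± 0.247 (adjusted p = 0.512). Of the kinase list Mob1b, a coactivator of Lats, had 0.41 ± 0.173 (adjusted p = 0.479) and Taok3, a kinase upstream of it, -0.40 ± 0.208 (adjusted p = 0.707). Myof, Ajuba and Wtip, like Amotl2, passed with array weights and in a fit of the young and old arrays alone. Over all genes those fits called 1879 of 13481 and 1007 of 12992.

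In 32-week wild-type HSC 3 of 10 kinases and cofactors fell and 1 rose against young HSC, where 17.7% of all genes fell and 6.42% rose. In these counts, here and below, rose and fell mean past the threshold in that direction. The list's median was -0.45, and that of all genes -0.04. The actin 3' to 5' ratio is higher on every 32-week array than on the young ones, and its part in these changes was not tested. Mob1b fell the most, by 1.49 ± 0.173 (limma, adjusted p = 0.000362), from 365 ± 33.0 to 122 ± 31.2 (SD, n = 3). Map4k4, a kinase that can activate Lats, fell by 0.94 ± 0.244 (adjusted p = 0.0168) and Stk38l, a relative of Lats, by 0.85 ± 0.280 (adjusted p = 0.0468). Taok3 rose by 0.75 ± 0.208 (adjusted p = 0.0226). Of these 4 genes only Mob1b kept its call whichever array was left out. Without replicate 3 of the 32-week wild type Mob1b was the only kinase gene called, where 636 genes rose and 1891 fell of 13425. Of 14 scaffold genes 3 rose, Limd1 (0.76 ± 0.146, adjusted p = 0.00392), the polarity gene Scrib (0.93 ± 0.219, adjusted p = 0.0107) and Rassf1 (0.53 ± 0.170, adjusted p = 0.0425), and none fell. The Rassf1 call was lost in 12 of 19 alternatives, 4 of them fits with 1 array left out (young replicate 2 or 3, or 32-week wild-type replicate 1 or 3).

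Of 16 target genes 2 fell and none rose in 32-week wild-type HSC, no larger a share than the 17.7% of all genes that fell. Gadd45a, a growth arrest and stress gene, read 175 ± 42.5 in young, 19.5 ± 0.722 in 32-week wild-type, 23.6 ± 9.61 in mutator and 211 ± 43.3 in old HSC (SD, n = 3). From young to 32-week wild type it fell by 2.40 ± 0.215 (limma, adjusted p = 0.000126). Asap1, a regulator of the cytoskeleton, fell by 1.46 ± 0.474 (limma, adjusted p = 0.0441) with groups that overlap, a call that leaving out young replicate 2 or 3 or 32-week wild-type replicate 1 or 3 ended. Between mutator and 32-week wild type none of the lists had a gene past the threshold. The largest of those named were Crim1 (1.0025 ± 0.282, adjusted p = 0.564), Map4k4 (0.82 ± 0.244, adjusted p = 0.570) and Mob1b (0.76 ± 0.173, adjusted p = 0.564). These 3 passed without replicate 2 of the 32-week wild type. Over all genes 221 of 13456 passed in that fit, 208 as higher and 13 as lower, against 0 of 13481 in the main fit.

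**Figure D4:**
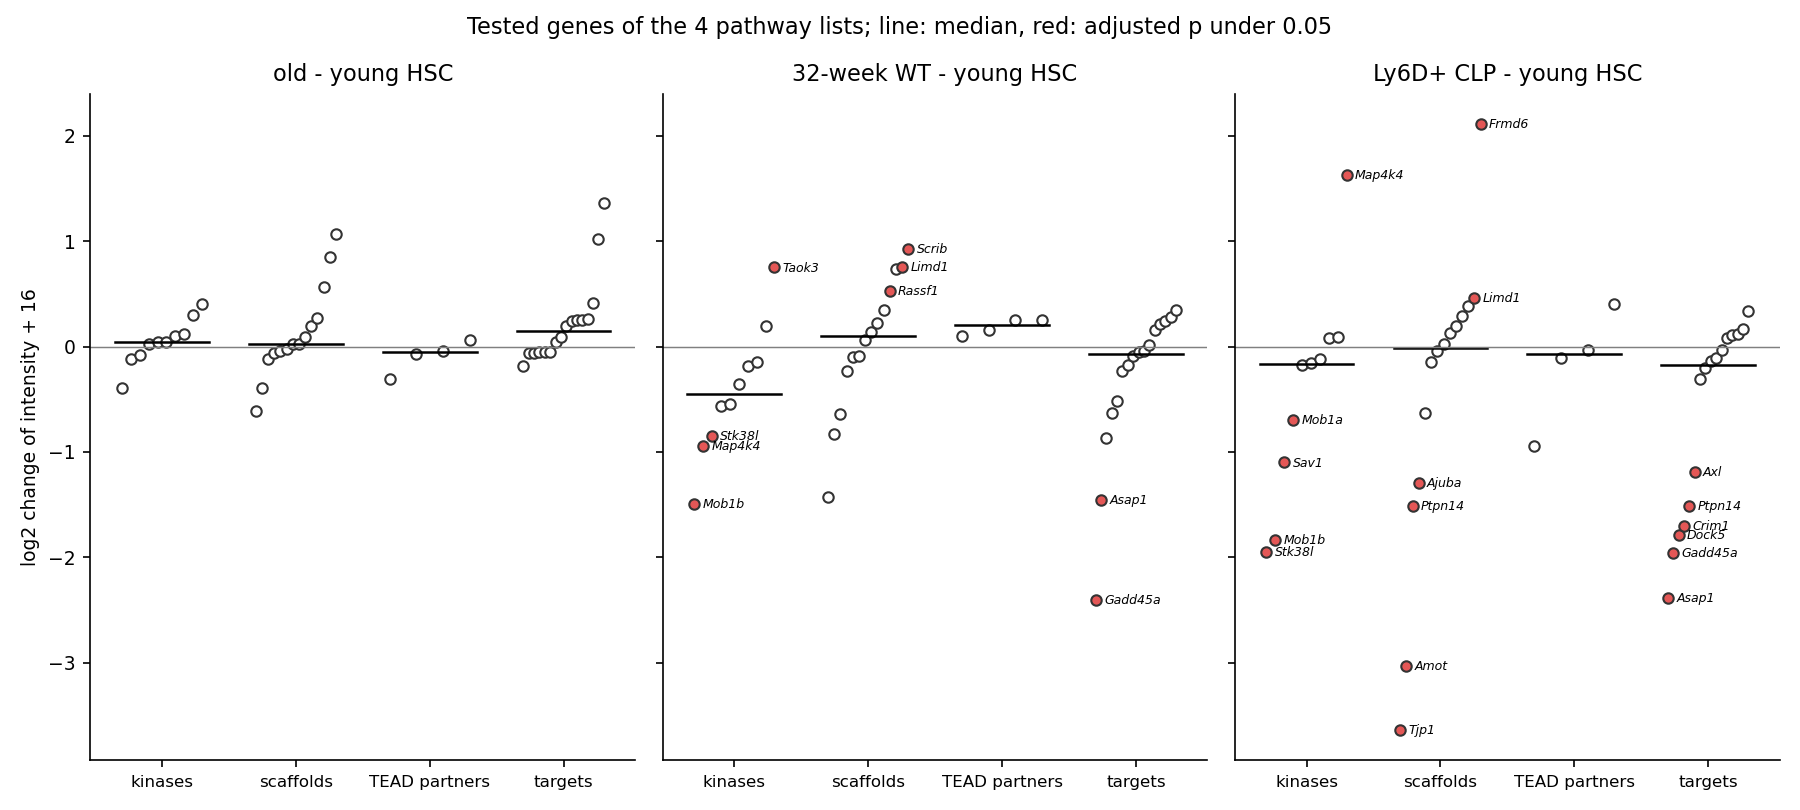
Change of each tested gene of the 4 pathway lists in 3 comparisons with young HSC, in log2 units of intensity + 16. Circles are genes, black lines list medians, and red circles with names passed at an adjusted p under 0.05. None of the circles is red in old HSC, while Mob1b and Gadd45a are low in both other panels.

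Of 14 scaffold genes 3 rose and 4 fell from young HSC to Ly6D- CLP, where 9.55% of all genes rose and 14.9% fell. In Ly6D+ CLP 2 rose and 4 fell, where 10.4% and 13.9% of all genes did. Tjp1, the tight junction scaffold ZO-1, read 337 ± 71.4 (SD, n = 3) in young HSC and was at background in both CLP groups, at least 18.6-fold lower in each (limma, adjusted p = 0.000659 in Ly6D- and 0.000454 in Ly6D+ CLP). Amot, a relative of Amotl2, fell by 1.9965 ± 0.455 on the log2 scale in Ly6D- CLP (adjusted p = 0.00639) and was at least 12.0-fold lower in Ly6D+ CLP, where it was at background (adjusted p = 0.000332). Frmd6, a FERM-domain protein, moved the other way, up by 2.12 ± 0.569 in Ly6D- (adjusted p = 0.0159) and 2.11 ± 0.569 in Ly6D+ CLP (adjusted p = 0.0157). With 1 array left out, Frmd6 stayed up by 1.91 to 2.32 in Ly6D- and 1.93 to 2.29 in Ly6D+ CLP. Its call ended only without replicate 2 of the CLP group compared. The counts of this list also moved where a CLP array was left out.

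Among the kinases, Map4k4 rose in CLP, by 1.39 ± 0.293 in Ly6D- (limma, adjusted p = 0.00392) and 1.63 ± 0.293 in Ly6D+ cells (adjusted p = 0.00135), while Mob1b fell by 1.44 ± 0.266 (adjusted p = 0.00172) and 1.83 ± 0.266 (adjusted p = 0.000253). The counts were 1 up and 3 down of 10 in Ly6D- and 1 up and 4 down in Ly6D+ CLP, against the same shares of all genes. With 1 array left out, Map4k4 stayed up by 0.983 to 1.805 in Ly6D- and 1.48 to 1.74 in Ly6D+ CLP. Mob1b stayed down, at -1.985 to -0.898 and -1.93 to -1.735. The Map4k4 call in Ly6D- CLP ended without Ly6D- replicate 1, and the list's counts moved where a CLP array was left out. Without young replicate 1 or 3 the Ly6D- counts were 1 and 2. Over all genes 1058 rose and 1652 fell of 14311 without replicate 1, and 984 and 1565 of 14334 without replicate 3. Without young replicate 3 the Ly6D+ counts were 1 and 2, where 1079 genes rose and 1508 fell of 14334. Stk38l was 103.7 ± 34.8 in young HSC (SD, n = 3) and at background in Ly6D+ CLP, and it was the only pathway gene called between the CLP groups, at least 4.16-fold lower in the Ly6D+ cells (adjusted p = 0.0324), where 2.68% of genes passed, 1.19% as lower. Leaving out Ly6D- replicate 1 or either Ly6D+ replicate, the one with the actin ratio of 3.85 included, ended that call.

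Of 16 target genes 5 fell and 1 rose in Ly6D- CLP, and 6 fell and none rose in Ly6D+ CLP, where 14.9% and 13.9% of all genes fell. Gadd45a fell by 2.45 ± 0.267 (limma, adjusted p = 2.96e-05) and 1.96 ± 0.267 (adjusted p = 0.000153). Dock5, a GTPase activator, fell by 1.34 ± 0.266 (adjusted p = 0.00273) and 1.78 ± 0.266 (adjusted p = 0.000319), and Crim1, a membrane protein that binds growth factors, by 1.52 ± 0.330 (adjusted p = 0.00472) and 1.70 ± 0.330 (adjusted p = 0.00221). The gene that rose was the kinase Nuak2, by 1.30 ± 0.344 in Ly6D- CLP (adjusted p = 0.0147), a call lost without Ly6D- replicate 2. The count of falls was lower in each CLP group where replicate 1 of that group was left out.

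The genes whose profile over the 16 arrays was most like that of each member were found by the root mean square difference of gene-centred log2 values, among 14342 genes. Nearest to Wwtr1 was Plscr2, a phospholipid scramblase, at 0.35, where the profile of Wwtr1 itself has a root mean square of 1.59. Dsg2, a desmosomal cadherin, followed at 0.62 and the BMP receptor gene Bmpr1a at 0.63. Plscr2 read 36.7 ± 7.90 in young and 660.5 ± 35.2 in old HSC (SD, n = 3), and its change of 3.69 ± 0.332 passed (limma, adjusted p = 0.000189), as did those of Dsg2 (2.04 ± 0.330, adjusted p = 0.00950) and Bmpr1a (2.34 ± 0.365, adjusted p = 0.00763). These genes were found on the same arrays, so their agreement with Wwtr1 is a description.

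For the other members the nearest profiles were flatter. Nearest to Lats1 were the proton pump gene Atp6v1a at 0.21, Sfr1 at 0.22 and Wrnip1 at 0.24, and to Lats2 Slc46a3 at 0.22, the blood transcription factor gene Runx1 at 0.27 and Exd2 at 0.28. Nearest to Yap1 were Wfdc2 at 0.15, the Wnt receptor gene Fzd8 at 0.18 and Kif5c at 0.20, and to Amotl2 Phka1 at 0.31, Lbhd2 at 0.32 and Zc3h12d at 0.33. The members' own root mean squares were 0.68 for Lats1, 0.60 for Lats2, 0.39 for Yap1 and 0.54 for Amotl2. The group means of Tead1 and Tead2 spanned 0.12 and 0.53 log2 units, too little for such a search under the 1-unit rule used.

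**Figure D5:**
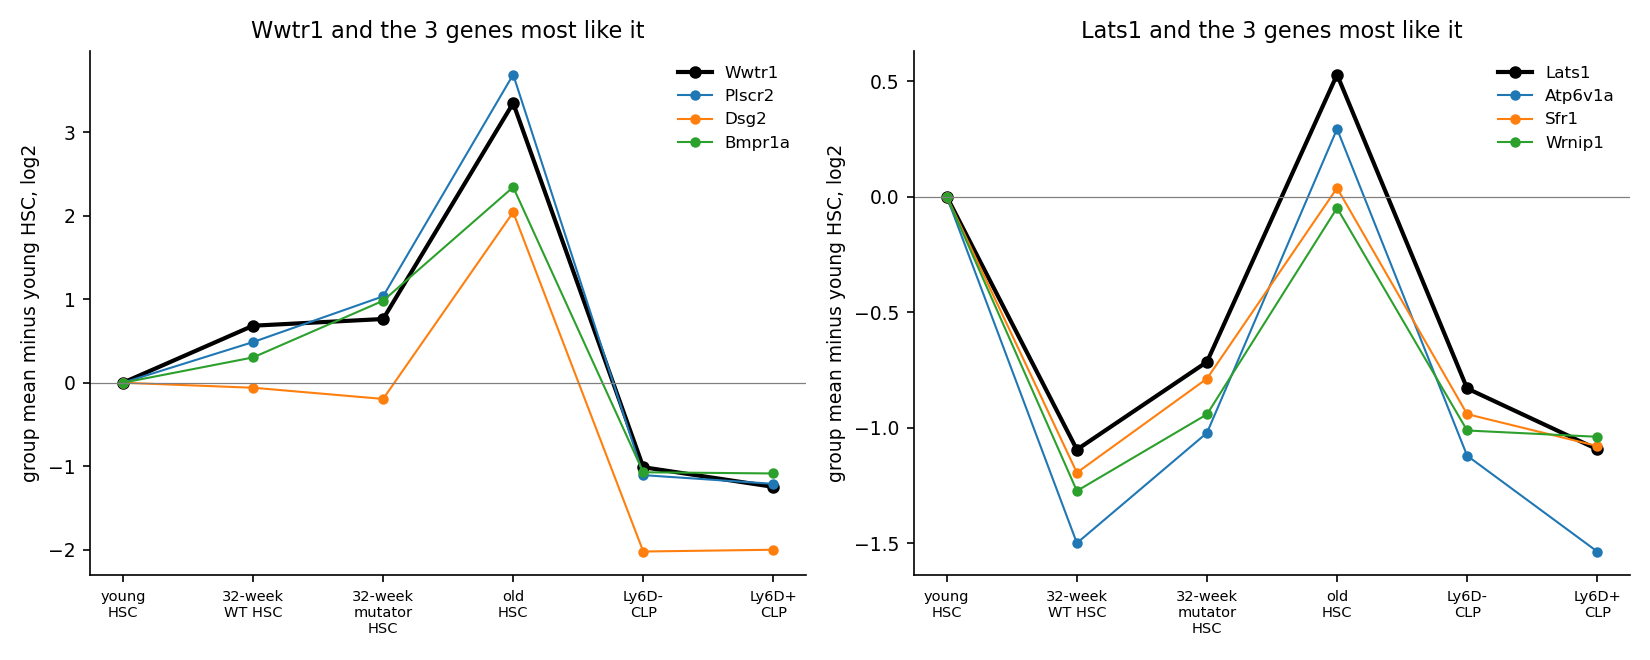
Group means minus the young HSC mean, in log2 units of intensity + 16, for Wwtr1 and Lats1 (black) and the 3 genes most like each (colours) over the 6 groups. Wwtr1 and Plscr2 peak in old HSC, at 3.35 and 3.69, and Lats1 lies below young HSC in every group but old HSC.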

How the data were processed

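RNA was measured on 16 Affymetrix arrays of sorted mouse bone marrow cells, with 4000 to 7000 cells going into each, per the labels' protocols. The deposited values are probe set intensity on a linear scale, and how the authors summarised, background-corrected and normalized them is not given here. Intensities were used as deposited, as log2(intensity + 16). Of 45101 probe sets, 34945 carry 1 gene symbol. Genes entered the test where 3 or more of 12 HSC arrays (HSC comparisons), or 2 or more of 16 (CLP comparisons), read them over the array's 40th percentile. The fit used lmFit and eBayes of limma 3.58.1 (R 4.3.3) on group means, with Benjamini-Hochberg adjustment over all genes tested, and the fit was tested on simulated data. A fold change of a low gene is understated by the added 16. Bounds ("at least") set the bright group's mean plain log2 intensity against the higher of the background level and the dim probe set's own value.

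The members, the pathway and marker lists were chosen with earlier results of these data known. Named are the members, up to 3 genes per list, direction and comparison with the smallest p past the threshold (up to 2 as values where none passed), and the 3 genes most like each member. Stk3 had no match and was not analysed here. Other normalizations, filters, probe set rules, pseudocounts, fits and left-out arrays were tried. P-values set a group difference against the spread between these samples, which the groups of a fit share. The number of arrays limits the precision of these p-values.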

Additional observations from a re-analysis of the deposited data

How the results depend on the processing

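Wwtr1 in old against young HSC passed under all 19 alternatives, at 1.39 to 3.59 (adjusted p 3.41e-07 to 0.0437). The count of members past the threshold was 1 there, 5 with array weights and 3 with only the groups compared. Over all genes 176 of 13481 passed there, 1879 of 13481 with array weights and 1007 of 12992 with only the groups compared. For 32-week wild type against young HSC the count of members was 1. It was 2 under array weights, where 4067 of 13481 genes passed, and 3 with each probe set on its own. For the difference of effects it was 0, and 1 with array weights, where 483 of 13481 genes passed. For Ly6D- CLP it was 1, where 3503 of 14343 genes passed. It was 2 under the 60th percentile filter, pseudocount 1 and eBayes trend and robust, where 3513 of 11064, 3478 of 14343 and 3475 of 14343 genes passed. It was also 1 with array weights, where Lats2 passed and Yap1 did not, among 3578 of 14343 genes. It was 0 with the mean of probe sets (3390 of 13808 genes passed) or pseudocount 64 (3415 of 14343). With only the groups compared it was 3, Yap1 not among them, where 4219 of 13413 genes passed. Without the 6 arrays of 32-week mice (added after seeing the data) it was 4, where 4548 of 14006 genes passed. For Ly6D+ CLP it was 1, and 0 with young replicates 2 and 3 counted as 1, where 3486 of 14343 and 2583 of 14343 genes passed. It was 2 under array weights, only the groups compared or without those 6 arrays. Over all genes 3667 of 14343, 4316 of 13445 and 4541 of 14006 passed in these fits with 2. Leaving out 1 array gave 1 to 1 (old), 0 to 2 (32-week wild type), 0 to 1 (difference of effects), 0 to 1 (Ly6D- CLP) and 0 to 1 (Ly6D+ CLP). Mutator against 32-week wild type and Ly6D+ against Ly6D- CLP stayed at 0 in every alternative. Where a left-out array leaves 1 in a CLP group, that array is assumed to vary like the other groups. The change of Amot between mutator and 32-week wild type, 0.59, was -0.040 with array weights and -0.040 to 0.97 with an array left out, lowest without replicate 1 of the 32-week wild type. The cause of these shifts was not tested.

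Calls over all genes moved more: 176 in old against young HSC became 93 to 1879 over alternatives and 88 to 111 with an array left out, 3258 in 32-week wild type 2031 to 4067 and 2040 to 4158, 69 for the difference of effects 38 to 483 and 23 to 147, 3503 in Ly6D- CLP 2543 to 4548, 3486 in Ly6D+ CLP 2583 to 4541, and 384 between CLP groups 0 to 656 and 281 to 748. The 0 between mutator and 32-week wild type became up to 221 with an array left out. Median centring moved the median of all genes from -0.04 to -0.13 in 32-week wild type against young HSC. With the replicate number as a block, no count of members changed, and Wwtr1 in old HSC stayed at 3.35 (adjusted p = 0.00796). Deviations from the group means correlated above 0.1 in 9 of 18 same-numbered HSC pairs (median 0.096, -0.18 to 0.50) and in 6 of 36 differently numbered ones (median -0.079). The samples were not treated as paired, since the labels name no shared source and no comparison had every same-numbered pair above 0.1. Between young and old HSC the 3 pairs had 0.50, 0.42 and -0.014.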
